A study of Mus musculus with 19 samples.

Results

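The corneal and conjunctival epithelium of a mouse eye was examined in 1 single-cell RNA matrix labelled WT ocular, and its cells were chosen by their own transcripts. A cell was a member if it had at least 500 UMIs (unique molecular identifiers, each standing for 1 captured RNA molecule), at least 200 genes, under 20% mitochondrial UMIs, a UMI of at least 4 of the 9 genes Krt12, Krt5, Krt14, Krt15, Aldh3a1, Pax6, Trp63, Dsp and Perp, and none of Ptprc, C1qa, Pecam1, Col1a2 or Nrl, which mark leukocytes, macrophages, endothelium, fibroblasts and rods. The rule found 1688 members, which were 6.46% (95% exact binomial interval 6.16 to 6.76%) of the 26143 cells that passed the limits on depth and mitochondrial share in that matrix, and the series held 60334 such cells in 4 matrices. The remaining 24455 cells of the matrix are called the cells outside the rule.

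Melan-a cells, a line of immortal mouse melanocytes, had been left wild type (WT) or made BAP1 knockout (KO) by CRISPR as clones, and were injected into the eye or the skin of syngeneic mice without drug treatment. BAP1 removes ubiquitin from histones and is often lost in melanoma of the eye. The 4 matrices, labelled WT ocular, KO ocular, WT skin and KO skin, were deposited under 1 sample. Each condition was seen once, so no difference between conditions or between sets of cells has a replicate check. The names WT and KO refer to the injected cells, while corneal and conjunctival cells are host tissue whose genotype and age the labels do not give.

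The ocular surface is covered by a stratified, non-keratinised epithelium. In the cornea its cells pair the keratin Krt12 with Krt5, store enzymes such as Aldh3a1 and transketolase (Tkt) as soluble crystallins, and are renewed from basal cells at the limbus that make Krt14, Krt15 and Trp63. The conjunctiva, which lines the lids and the white of the eye, makes Krt4, Krt13 and Krt19, membrane mucins and, in goblet cells, the secreted mucin Muc5ac. Pax6 is the transcription factor that holds corneal identity, and desmosomes, built from desmogleins, desmocollins and plakins such as Dsp, join the cells of all these layers.

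Promoters are shown here for 4 genes on which the results turn: Krt12, the keratin of the differentiated cornea, Dapl1 and Aqp5, which lead the 2 corneal clusters described later, and Krt13, the conjunctival keratin with the most UMIs. Each run is the 250 bases before the start site listed by RefSeq on GRCm38.p6, written 5′ to 3′ on the gene's strand, and capitals mark matches on either strand to a TATA box, searched as TATAAA, to a GC box, searched as GGGCGG, or to an AP-1 site, searched as TGANTCA. The Krt12 run lies at chr11:99422260-99422509 on the minus strand, upstream of a start site 334 bases inside the annotated gene edge. The other runs end at the gene edge and lie at chr2:59484403-59484652 (plus strand, Dapl1), chr15:99590778-99591027 (plus strand, Aqp5) and chr11:100121567-100121816 (minus strand, Krt13).
Krt12: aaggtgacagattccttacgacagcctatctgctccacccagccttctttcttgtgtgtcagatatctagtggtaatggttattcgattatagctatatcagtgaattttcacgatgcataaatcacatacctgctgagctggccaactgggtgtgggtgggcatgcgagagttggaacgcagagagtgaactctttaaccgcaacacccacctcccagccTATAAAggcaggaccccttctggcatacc
Dapl1: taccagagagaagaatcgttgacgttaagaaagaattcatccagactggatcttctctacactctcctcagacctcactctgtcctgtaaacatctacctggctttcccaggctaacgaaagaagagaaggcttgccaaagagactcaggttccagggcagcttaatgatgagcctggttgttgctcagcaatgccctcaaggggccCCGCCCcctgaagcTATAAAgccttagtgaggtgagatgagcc
Aqp5: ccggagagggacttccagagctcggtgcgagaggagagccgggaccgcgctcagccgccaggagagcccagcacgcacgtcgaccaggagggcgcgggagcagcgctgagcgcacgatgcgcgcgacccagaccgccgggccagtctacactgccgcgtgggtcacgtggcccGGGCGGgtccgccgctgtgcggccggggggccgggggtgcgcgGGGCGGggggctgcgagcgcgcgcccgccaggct
Krt13: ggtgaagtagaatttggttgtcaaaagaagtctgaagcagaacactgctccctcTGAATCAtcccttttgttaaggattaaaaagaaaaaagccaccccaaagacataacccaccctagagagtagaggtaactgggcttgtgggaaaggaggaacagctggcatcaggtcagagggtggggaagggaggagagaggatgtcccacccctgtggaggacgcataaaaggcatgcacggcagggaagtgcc
Krt12 and Dapl1 each held TATAAA from position -29 to -24, a placement within the last 40 bases found in 3.03% of 32851 RefSeq promoters, while 12.4% held it anywhere in the 250 bases. Aqp5 held GGGCGG from -77 to -72 and from -34 to -29, and Dapl1 held its complement CCGCCC from -43 to -38; 32.7% of the promoters held a GC box. Krt13 held the AP-1 letters TGAATCA from -196 to -190, a motif present in 6.75% of them. These matches describe letters only, and the data hold no measurement of binding.

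The WT ocular matrix stood apart from the other 3. It was written by Cell Ranger 7.0.0 with 32285 genes and 16-base barcodes, against 8.0.0, 19059 genes and 24-base barcodes, so levels are not compared across matrices. It held 38176 barcodes and 108623160 UMIs, and 12029 barcodes (31.5%) had at least 20% mitochondrial UMIs. Members had a median of 2452 UMIs per cell (interquartile range 1626 to 4708), and the cells outside the rule 2033. All levels are CPM, the usual counts-per-million scale, taken from UMIs summed over the named cells, and intervals are 95% exact Poisson for CPM and exact binomial for shares of cells, which cover counting error only.

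Krt12 was found well beyond the members. A Krt12 UMI was present in 89.7% of members and in 50.8% (50.1 to 51.4%) of the cells outside the rule. Cells gated on markers of other types carried it at a similar rate, with 55.3% of rod cells, 49.4% of melanocytic cells, 55.9% of macrophages, 58.2% of neutrophils, 57.0% of fibroblasts, 59.9% of endothelial cells and 54.3% of Müller glia. These classes had median depths between 1419 (neutrophils) and 3380 UMIs (fibroblasts). Thinning each member to 1000 UMIs lowered the members' share from 89.7% to 55.8% (53.3 to 58.2%). The cells outside the rule and the classes of other types were not thinned, so the shares were not compared at equal depth. At least 4 of the 9 rule genes were found in 5.14% (Müller glia) to 11.8% (fibroblasts) of the same classes. The share of cells with a Krt12 UMI therefore did not separate the other cell types in this matrix, and levels are used in its place. Summed over cells, Krt12 stood at 2216 CPM in members and 324 CPM outside the rule. The level outside was uneven, from 221 CPM in melanocytic cells to 627 CPM in endothelial cells, 748 CPM in neutrophils and 806 CPM in rod cells.

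**Figure D1:**
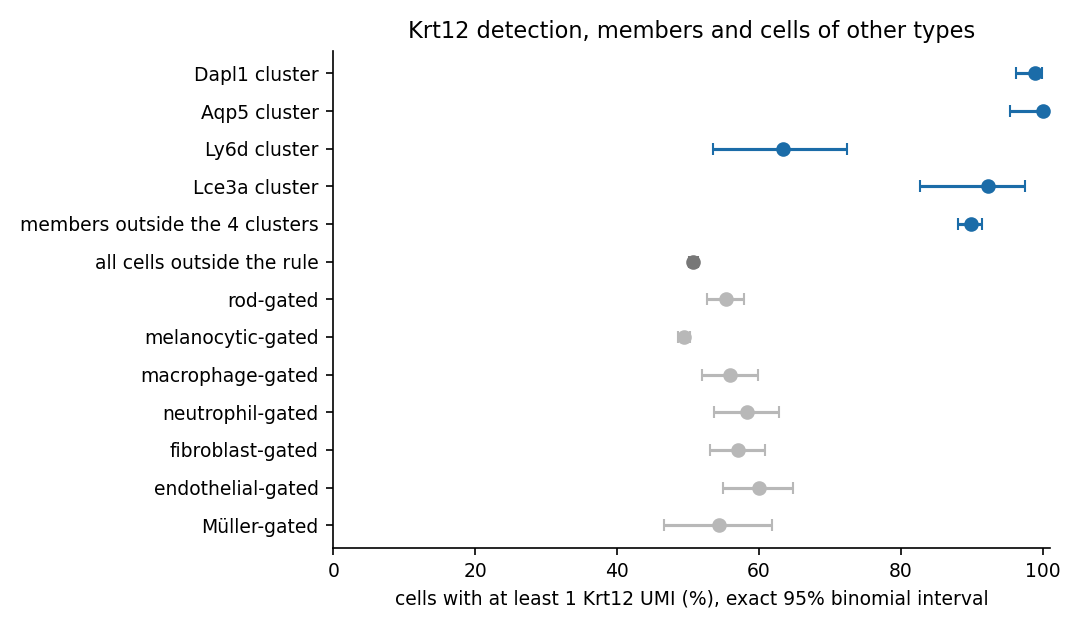
Share of cells with at least 1 Krt12 UMI (x axis, percent) in 4 epithelial clusters of members named by their leading genes (described next), the members outside them, the cells outside the rule and cells gated on other types' markers (y axis), with 95% exact binomial intervals. Other cell types lie between 49.4% and 59.9%, the Ly6d cluster is at 63.3% and the Aqp5 cluster at 100%, all before thinning.

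The members were a mixture, and junction genes stood above the other cells in 26.0% of them. The rule genes were left out and the members clustered, which gave 12 clusters, each called by its leading gene. A list of 26 epithelial junction genes (of desmosomes, tight and adherens junctions) summed to 822 CPM outside the rule. It reached at least 2 times that level in 4 clusters: 7781 CPM in the Aqp5 cluster (77 cells), 3958 CPM in the Ly6d cluster (109 cells), 2383 CPM in the Dapl1 cluster (189 cells) and 2031 CPM in the Lce3a cluster (64 cells). These 439 cells are called the junction-rich members and were 26.0% (23.9 to 28.2%) of the members, or 1.68% of the cells that passed. In the other 8 clusters, 1249 cells, the junction genes summed to 836.7 CPM, 1.02 times the level outside the rule, and no single one of these clusters passed 1.59 times. A limit of 1.5 times would have added the Pde6h cluster, 18 cells led by cone genes. A limit of 3 times would have left 186 cells, the Aqp5 and Ly6d clusters, and the limit and the lists were set after the data had been seen. Clustering with another seed or a lower resolution gave 3 junction-rich clusters and not 4. Comparisons between the 4 clusters therefore describe this 1 clustering. The junction genes mark epithelium and not its site: the Dapl1 and Aqp5 clusters (189 and 77 cells) also carried the corneal markers, and the Ly6d and Lce3a clusters were given no cell type name.

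The 1249 cells outside the junction-rich clusters lay in clusters that, except for the largest, were led by genes of other tissues. The largest cluster, Pvalb, held 440 cells with a median of 6010.5 UMIs. Pvalb measured 614 CPM there and 190 CPM in all other members. The melanocytic genes summed to 9939 CPM in this cluster and 9932 CPM in the cells gated as melanocytic, and it was given no cell type name. The Nrxn3 cluster (160 cells) was led by genes of retinal bipolar neurons (Pcp2, Grik1), the H2-Aa cluster (153) by antigen presentation and myeloid genes (Cd74, Lyz2), the Mgp cluster (145) by matrix genes with rod genes (Col3a1, Dcn, Pdc, Sag), the Tagln cluster (62) by smooth muscle actin (Acta2), the Crym cluster (32) by Müller glial genes (Rlbp1, Slc1a3) and the Pde6h cluster (18) by cone genes (Opn1sw, Arr3, Gnat2). The Hbb-bt cluster held 239 cells and was led by haemoglobin. A gene was compared if it had enough counts: at least 20 UMIs in the members concerned, or at least 20 CPM in the cells outside the rule (between clusters, at least 20 UMIs in the sets together). A gene below 20 CPM outside could enter only where it was high in members, so counts of higher genes in a list describe the genes compared and not the whole list. Between clusters, a gene low in 1 set could likewise enter only where it was high in the other. Over the cells outside the rule, these 1249 cells had 0.23% of 11294 genes at least 2-fold higher and 1.07% at least 2-fold lower, and none of the lists for the cornea, limbus, conjunctiva or junctions held a member 2-fold higher. Their Krt12 level was 515 CPM. They are kept in counts that follow the rule, and each result on the epithelium is given on the 439 junction-rich members.

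**Figure D2:**
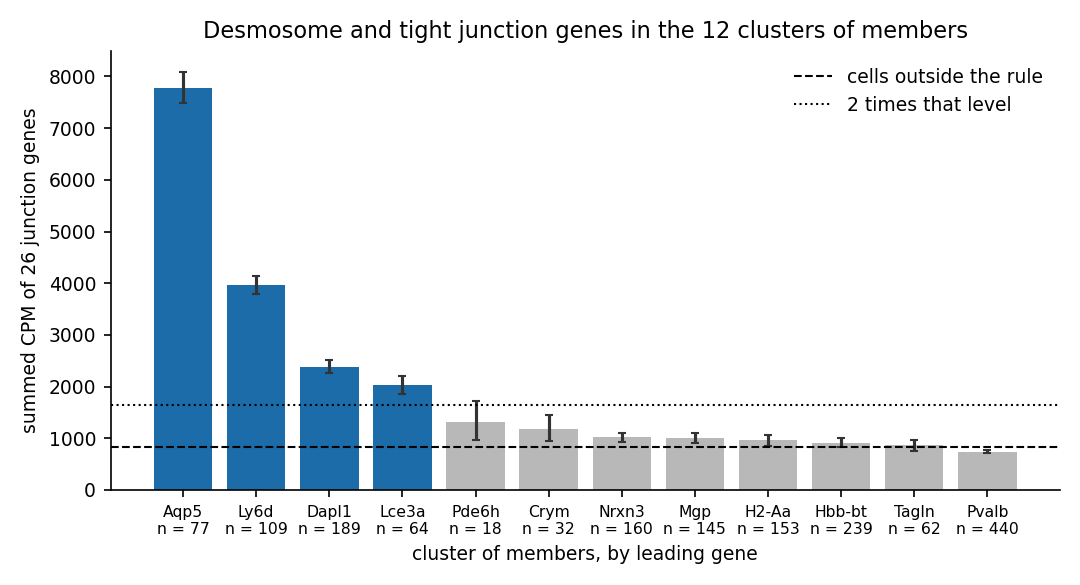
Summed CPM of the 26 junction genes (y axis) in the 12 clusters of members (x axis), with 95% exact Poisson intervals; blue bars are the 4 junction-rich clusters and grey bars the other 8. The dashed line is the cells outside the rule and the dotted line 2 times that level, which the 4 blue bars exceed.

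The junction-rich members held most epithelial transcripts of the set. They carried 82.2% of the members' Krt12 UMIs, 80.9% of Krt14, 80.3% of Krt15, 71.1% of Aldh3a1, 90.5% of Slurp1, 88.8% of Lypd2, 93.5% of Psca, 90.5% of Krt13 and 89.3% of Krt16. A cell in these clusters had a median of 8 Krt12 UMIs (highest 390), and a member elsewhere had a median of 1 (highest 58). Over all 1688 members, 4.26% of 12148 genes were at least 2-fold higher and 1.24% at least 2-fold lower than outside the rule, with 164 CPM of Krt16 against 19 CPM. These folds come from the same cells that the rule chose. Over the cells outside the rule, 12.9% of 7762 genes were at least 2-fold higher and 6.29% at least 2-fold lower in the junction-rich members. Since clusters were formed from these same cells' genes, all values that follow are descriptions without a test. RNA of other types was present in all sets: the 8 melanocytic genes summed to 3998 CPM in the junction-rich members, 8328 CPM in the other members and 8215 CPM outside the rule, and the 5 erythroid genes to 7955, 36401 and 30949.8 CPM. The part of such RNA in the results was not tested.

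The Dapl1 and Aqp5 clusters had the highest Krt12, Aldh3a1 and Tkt and are called corneal epithelium-like. Krt12 stood at 7828 CPM (7593 to 8068) in the Dapl1 cluster and 24986 CPM (24441 to 25539.5) in the Aqp5 cluster, against 374 CPM in the Ly6d cluster and 1721 CPM in the Lce3a cluster. Only the Ly6d cluster was near the 324 CPM of the cells outside the rule, and it lay within the 221 to 806 CPM of the classes of other types. Its partner Krt5 measured 1756, 4685, 1954 and 261 CPM in the Dapl1, Aqp5, Ly6d and Lce3a clusters (this order is kept from here), with 125 CPM outside the rule, so the Ly6d cluster had Krt5 without much Krt12. Aldh3a1, the aldehyde dehydrogenase stored as a corneal crystallin, measured 2148, 4814, 181 and 459.9 CPM, with 99.3 outside. Pax6 measured 173, 484, 102 and 92 CPM, with 25 outside, and was thus highest in the Aqp5 cluster. Tkt, the other crystallin enzyme, measured 1042 and 1181 CPM in the corneal clusters, and its 193 and 176 CPM in the other 2 were close to the 188 CPM outside. Of these genes only Tkt was not used by the rule. The sum of the differentiated cornea list did not single out the 2 corneal clusters, with 40143 CPM in the Lce3a cluster and 16579 CPM in those 2 together. Most of the sum in the Lce3a cluster came from a single gene of the list, Gsto1, whose levels are given below. Of the list's genes, 3 of 13 were 2-fold higher in the Lce3a cluster and 5 were 2-fold lower (7.83% and 25.6% of all genes).

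The 2 corneal clusters differed from each other in level. Mgarp, a mitochondrial protein, and Dapl1 measured 1196 and 1034 CPM in the Dapl1 cluster and 3021 and 1374 CPM in the Aqp5 cluster, with at most 153 and 88.7 CPM in the Ly6d and Lce3a clusters. Aqp5, the water channel of corneal and glandular epithelia, was 989.6 CPM against 4667 CPM. Gsta4, a glutathione transferase that clears lipid aldehydes, was 2162 against 6969 CPM. Mal, a raft protein of apical membranes, was 549 against 3473 CPM. Of the genes of the differentiated cornea list, 10 of 13 were at least 2-fold higher in the Aqp5 cluster and 1, the glycolytic enzyme gene Eno1, was 2-fold lower (median log2 difference 1.90, against -0.05 over all 5382 genes compared), where 15.7% of all genes were 2-fold higher and 16% 2-fold lower. The melanocytic genes summed to 6217 CPM in the Dapl1 cluster and 1715 CPM in the Aqp5 cluster, with all 8 genes found in the first and Sox10 at 0 in the second, and the erythroid genes to 10573 and 2796 CPM. The cells also differed in depth, with medians of 2103 and 3333 UMIs. The part of such RNA and of depth in the difference was not tested.

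Of the whole differentiated cornea list, 11 of 14 genes compared were at least 2-fold higher in the junction-rich members than outside the rule (12.9% of all genes) and none was 2-fold lower, with a median log2 difference of 3.51, where the median over all genes was -0.07. Muc16 and Krt24 had no UMI in any member. With 3 counts as the limit, a count of 0 allows up to 0.178% of the 1688 cells to hold a UMI and a level of up to 0.425 CPM, and it does not limit the share of cells that express the gene.

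**Figure D3:**
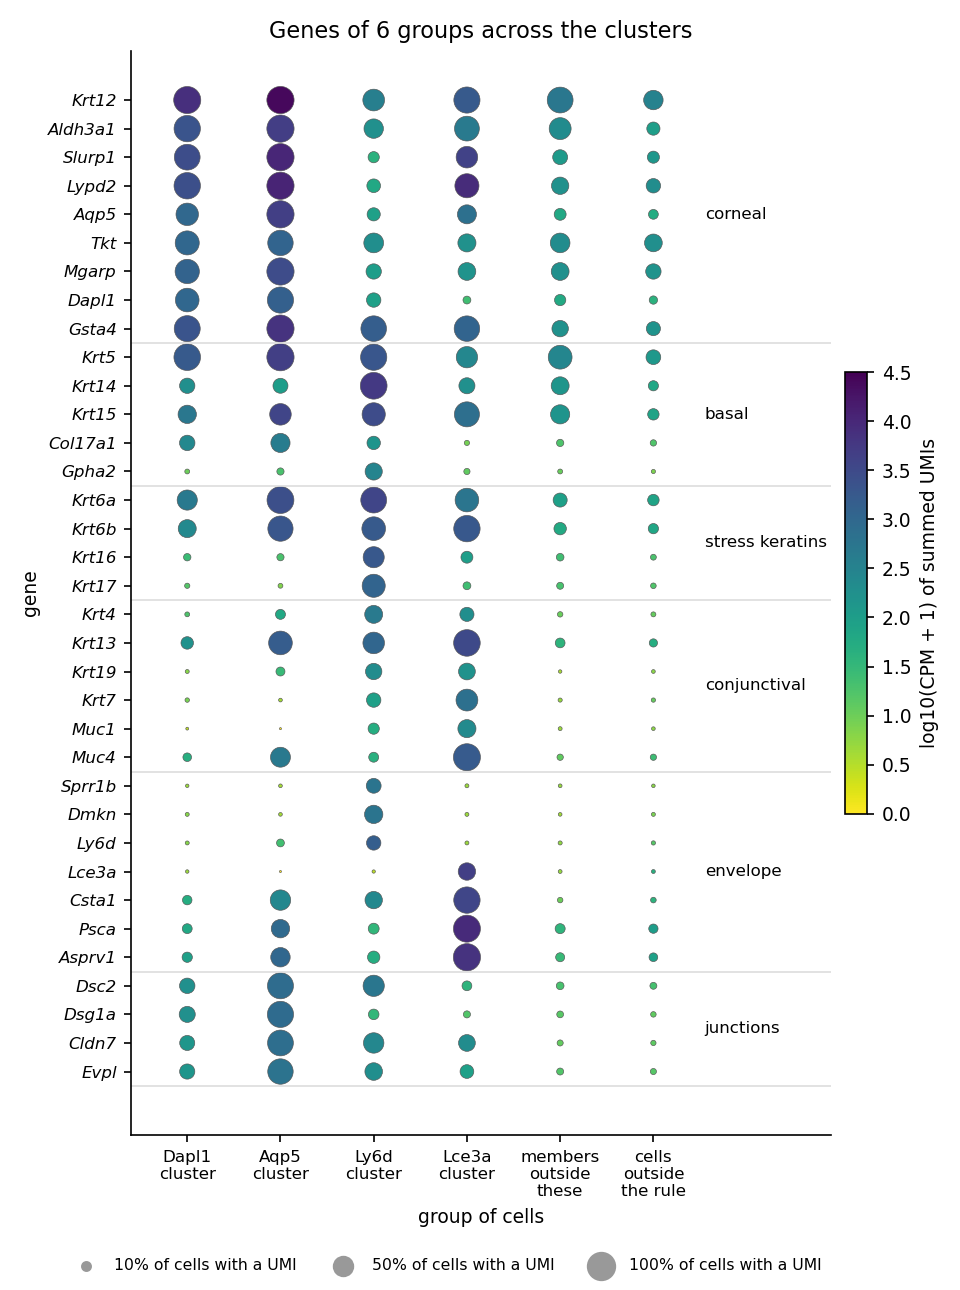
Genes of 6 groups (rows) in the junction-rich clusters, the other members and the cells outside the rule (columns); dot size is the percent of cells with a UMI and colour the level as log10(CPM + 1). Krt12 and Aldh3a1 are darkest in the Dapl1 and Aqp5 clusters, Krt14, Krt16 and Krt17 in the Ly6d cluster, and Psca and Lce3a in the Lce3a cluster.

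Slurp1, Lypd2, Psca and Ly6d are members of the Ly6 family, small secreted or membrane-anchored proteins, and lie close together on chromosome 15. On GRCm38.p6 RefSeq places Psca at chr15:74714839-74717065, Slurp1 at chr15:74726644-74728023, Lypd2 at chr15:74732246-74734795 and Ly6d at chr15:74762056-74763567. Their patterns were not all alike. Slurp1, a secreted protein abundant in the cornea, measured 2794, 10402, 41.5 and 4177 CPM, against 128 outside the rule, so it was low only in the Ly6d cluster. Lypd2 had the same order of clusters, with 2595, 11211, 62.3 and 8699 CPM and 206 outside. Psca measured 61.4, 909, 34 and 9362 CPM, and only the Aqp5 and Lce3a clusters stood above the 102 CPM outside. Ly6d measured 5.58, 21.9, 1471 and 3.83 CPM and was found in 27.5% of the cells of the cluster it leads. The intervals of the highest levels were 8995 to 9741 CPM for Psca and 1369 to 1578 CPM for Ly6d. Each of these 2 genes is among those that lead its cluster, so the high level there follows in part from the clustering.

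The type I keratin genes on chromosome 11 gave another set of neighbours with unlike patterns. Krt13 (chr11:100117327-100121566), Krt15 (chr11:100131759-100135949), Krt19 (chr11:100140810-100145926), Krt14 (chr11:100203162-100207510), Krt16 (chr11:100246091-100248902) and Krt17 (chr11:100256215-100261029) lie in that order, and Krt12 (chr11:99415664-99422593) lies apart from them. Krt14, the keratin of basal cells, measured 186, 100, 5740.2 and 180.1 CPM and so stood far above the other clusters in the Ly6d cluster. Krt15, a keratin of limbal basal cells, measured 515, 3798, 2987 and 751 CPM, with its highest level in the Aqp5 cluster, where Krt12 was also highest. Trp63, the regulator of stratified epithelia, measured 96.7, 116, 79.3 and 19.2 CPM. The basal genes therefore did not mark 1 cluster. Reads of near-identical keratin pairs (Krt6a with Krt6b, Krt14 with Krt16 and Krt17) could be split or lost between copies, which makes their levels less certain.

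**Figure D4:**
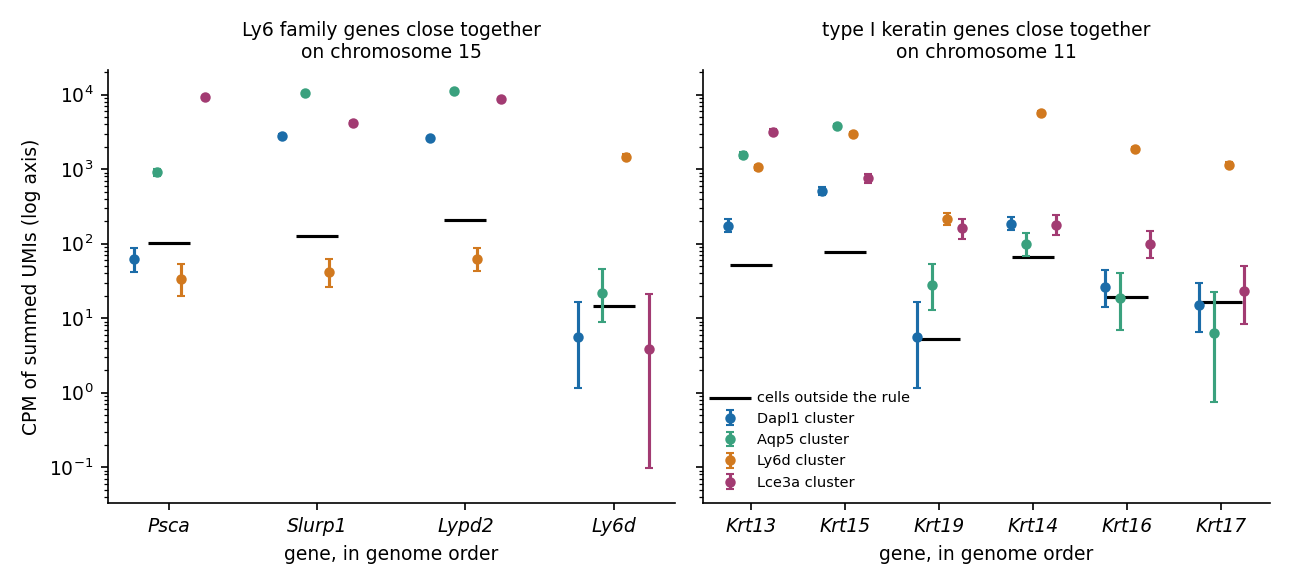
Level in CPM (y axis, log scale) of neighbouring Ly6 family and type I keratin genes in the junction-rich clusters, with 95% exact Poisson intervals; black bars are the cells outside the rule. Psca peaks in the Lce3a cluster at 9362 CPM and Ly6d in the Ly6d cluster at 1471 CPM.

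The Ly6d cluster combined basal, stress and envelope genes and was given no cell type name. Beside Krt14 it was high in the keratins of wounded or hyperproliferative epithelium: Krt16 measured 1871 CPM there, against 26, 18.7 and 99.6 CPM in the Dapl1, Aqp5 and Lce3a clusters, and Krt17 measured 1149.9 CPM against 14.9, 6.25 and 23 CPM. Krt6a measured 471, 2599, 3722 and 571 CPM and Krt6b 244, 1989.8, 1748 and 1882 CPM, so these 2 were also high in the Aqp5 cluster. Gpha2, a marker of quiescent limbal stem cells, measured 298 CPM in the Ly6d cluster and at most 18.7 CPM in the others. Of the limbal and basal list, 10 of 18 genes were at least 2-fold higher in the Ly6d cluster than in the 2 corneal clusters together and 1 (Col17a1) was 2-fold lower, with a median log2 difference of 1.17 against -0.18 over all genes, where 4.45% of 7019 genes were 2-fold higher and 11.4% 2-fold lower. Abcb5, another limbal marker on that list, had no UMI in any member.

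Genes of the cornified envelope, the cross-linked protein layer of squamous cells, split between the Ly6d and Lce3a clusters. Sprr1b and Dmkn, an envelope precursor and an epidermal secreted protein, measured 585 and 597 CPM in the Ly6d cluster and at most 3.83 and 5.58 CPM in the others. Anxa1, a calcium-binding protein, measured 279, 581, 1786 and 119 CPM. Csta1, a stefin protease inhibitor, measured 50.2, 266, 249 and 3560.2 CPM and thus stood out in the Lce3a cluster. Lce3a, a late envelope gene, measured 4614 CPM in the cluster it leads, in 40.6% of its cells, and at most 3.72 CPM elsewhere. Of the squamous envelope list, 9 of 13 genes were 2-fold higher in the Ly6d cluster than in the corneal clusters (4.45% of all genes), and 2 of 7 (Cnfn and Csta1) were 2-fold higher in the Lce3a cluster and 3 (Anxa1, Evpl and Lypd3) were 2-fold lower, where 7.83% of 6271 genes were 2-fold higher and 25.6% 2-fold lower. The eyelid epidermis list has 12 genes, and 4 had enough UMIs to be compared. Of these, 3 were 2-fold higher in the Ly6d cluster than in the corneal clusters (4.45% of all genes) and none was 2-fold lower (median log2 difference 5.39). The list summed to 978 CPM in the Ly6d cluster and 57 CPM in the corneal clusters. Genes could thus be compared mainly through the Ly6d cluster, which fixed this count in part. Krtdap measured 172 CPM in the Ly6d cluster and had no UMI in the other 3, Krt10 measured between 22.3 CPM (Dapl1) and 75 CPM (Aqp5), and Flg, Flg2, Lce1a1, Lce1b and Krt2 had no UMI in any member. The hair and meibomian gland genes Krt71, Krt79, Elovl3 and Krt35 also had none.

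The conjunctival keratins Krt4 and Krt19 were highest in the Ly6d and Lce3a clusters. Krt4 measured 16.7, 62.5, 459 and 199 CPM, Krt19 5.58, 28.1, 213 and 161 CPM, and Krt13 175, 1549, 1057 and 3196 CPM. Krt13 departed from the other 2, since the Aqp5 cluster stood above the Ly6d cluster. Krt7, a keratin of simple and glandular epithelia, measured 709 CPM in the Lce3a cluster and at most 88.7 CPM elsewhere. Of the conjunctival list, 6 of 8 genes compared were 2-fold higher and 1 (Muc4) was 2-fold lower in the Ly6d cluster than in the corneal clusters (4.45% and 11.4% of all genes), and 6 of 6 were 2-fold higher in the Lce3a cluster (7.83% of all genes). The list has 18 genes, and the others had too few UMIs to be compared.

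Of the membrane mucins, which hold the tear film to apical cells, Muc4, Muc1 and Muc20 were highest in the Lce3a cluster, and Muc16 had no UMI. These genes were chosen after their values were seen. Muc4 measured 46.5, 481, 43.4 and 1686 CPM, Muc1 1.86, 0, 51 and 234 CPM, and Muc20 7.44, 50, 17 and 307 CPM. The secreted goblet cell mucins Muc5ac and Muc5b had no UMI in any member, so neither was detected at this depth. Gsto1, a glutathione transferase, measured 1417, 7996, 3505 and 28983 CPM against 458 outside the rule, and Asprv1, a protease of upper epidermal layers, 89.3, 1021, 51 and 7005 CPM. Most UMIs of Lce3a and Psca, which lead the Lce3a cluster, lay outside the rule: 3832 Lce3a UMIs against 1229 in members, and 8610 Psca UMIs against 2979. A Lce3a UMI was present in 1.52% of the cells outside the rule and a Psca UMI in 11.1%.

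**Figure D5:**
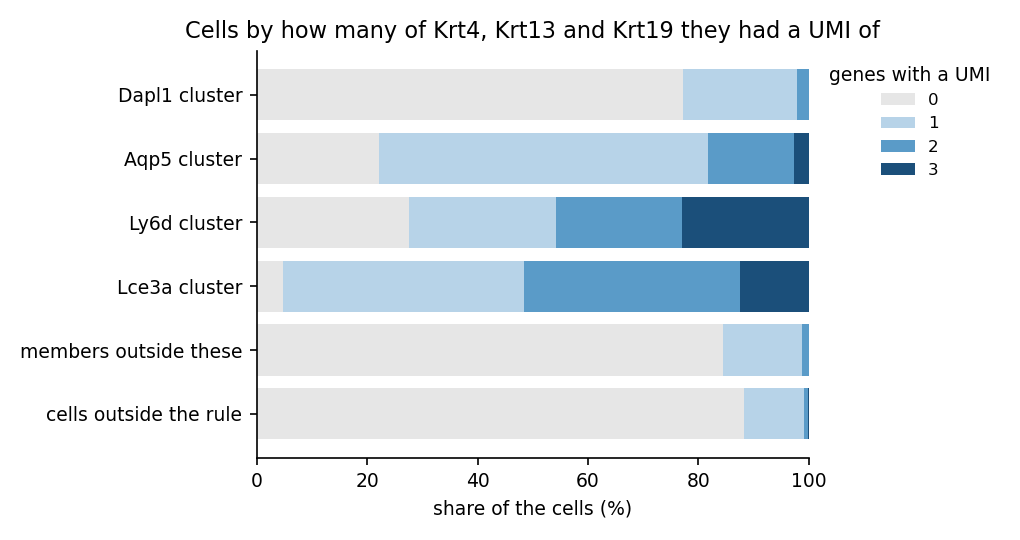
Share of cells (x axis, percent) with 0, 1, 2 or 3 of Krt4, Krt13 and Krt19 detected, stacked, in the sets of cells on the y axis. Cells with at least 2 are 50 of 109 in the Ly6d cluster and 33 of 64 in the Lce3a cluster, against 4 of 189 in the Dapl1 cluster.

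All 9 desmosome genes compared were at least 2-fold higher in the junction-rich members than outside the rule (12.9% of all genes), with a median log2 difference of 4.16, which the choice of clusters fixed in part. Between clusters, all 9 were 2-fold higher in the Aqp5 than in the Dapl1 cluster (median log2 2.11, 15.7% of all genes), and 8 of 9 were 2-fold lower in the Lce3a cluster than in the corneal clusters (median log2 -3.31, 25.6% of all genes). Dsp, the plakin that ties desmosomes to keratin, measured 359, 1249, 542 and 123 CPM. Desmocollin 2 (Dsc2) measured 180.4, 837, 532 and 38.3 CPM and desmoglein Dsg1a 180.4, 871, 32.1 and 15.3 CPM. Outside the rule they measured 20.4 and 11.4 CPM, so the Lce3a cluster was close to those cells in both. Ppl, a plakin shared by desmosomes and the envelope, was the exception, with 279.8 CPM in the Lce3a cluster against 104 and 647 CPM in the Dapl1 and Aqp5 clusters. Of the tight and adherens junction genes, Cldn7 measured 136, 768, 259 and 215 CPM and Tjp1 48.4, 106, 69.9 and 253 CPM. The Lce3a cluster had the lowest Dsc2 and the highest Tjp1.

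Hemidesmosomes fasten basal cells to the basement membrane, and 3 of their genes were lowest in the Lce3a cluster. Col17a1, their transmembrane collagen, measured 251, 428, 147 and 7.66 CPM, with 16.5 outside the rule. Itga6, the laminin receptor chain, measured 106, 219, 232 and 26.8 CPM, and Lama3, a laminin 332 chain, 33.5, 103, 147 and 7.66 CPM. In the Lce3a cluster 6 of 8 genes compared were 2-fold lower than in the corneal clusters (25.6% of all genes) and none was 2-fold higher. The gap junction genes Gja1 and Gjb2 measured 242 and 306 CPM in the Ly6d cluster and at most 103 and 46.9 CPM in the others.

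Transcription factors of barrier epithelia were high in the junction-rich members, where 14 of 18 genes compared were 2-fold higher than outside the rule and 1 was 2-fold lower (median log2 2.77; 12.9% and 6.29% of all genes). The gene that was lower was Id3, an inhibitor of helix-loop-helix factors, with 24.3 CPM against 60.9 CPM. Klf4, which drives barrier differentiation, measured 264, 699.7, 189 and 169 CPM. Klf5 measured 106, 399.8, 232 and 84.3 CPM and Ehf, an epithelial ETS factor, 91.1, 362, 149 and 119 CPM, both highest in the Aqp5 cluster. Elf3, another ETS factor, differed from these, with 80, 359, 236 and 759 CPM. Of the Wnt and Notch genes, Wnt4 measured 119, 166, 125 and 49.8 CPM and Jag1, a Notch ligand, 31.6, 75, 58.5 and 11.5 CPM, and 9 of 11 were 2-fold lower in the Lce3a cluster than in the corneal clusters (25.6% of all genes).

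Ligands and receptors of the EGF and FGF pathways, which drive corneal wound closure, were spread over the clusters. The receptor Egfr measured 61.4, 159, 62.3 and 34.5 CPM, with 13.9 outside the rule. Its ligand Hbegf measured 16.7, 43.7, 166 and 318 CPM, and the ligand Areg measured 0, 34.4, 142 and 3.83 CPM. Fgfbp1, which carries FGFs from the matrix, measured 132, 690.3, 234 and 3.83 CPM. Receptor and carrier were thus highest in the Aqp5 cluster, Areg in the Ly6d cluster and Hbegf in the Lce3a cluster. In all, 10 of 12 genes were 2-fold higher in the junction-rich members than outside the rule and none was 2-fold lower (12.9% and 6.29% of all genes).

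Water channels and protective enzymes varied by gene. Aqp3, the aquaglyceroporin of basal and wing cells, measured 349.7, 1356, 729 and 30.7 CPM, so the Lce3a cluster, at 732 CPM of Aqp5, had little Aqp3. The sodium channel subunit Scnn1g had no UMI in any member. Of the antioxidant genes, 8 of 22 were 2-fold higher in the junction-rich members than outside the rule and 3 (Gpx2, Gstm1 and Gstp1) were 2-fold lower (median log2 -0.14; 12.9% and 6.29% of all genes). Gstp1, abundant outside the rule at 5378 CPM, measured 3683, 778, 1790.0 and 2514 CPM, and thioredoxin (Txn1) 1985, 1349, 3327 and 1016 CPM against 2038 CPM. The small heat shock protein gene Hspb1 measured 575, 1984, 812 and 253 CPM against 57 outside.

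Glycolytic genes had the lowest levels in the Aqp5 cluster. Gapdh measured 958, 312, 836 and 724 CPM, with 1287 outside the rule, and Tpi1 419, 162, 363 and 326 CPM, with 524 outside. Of the list, 10 of 14 genes were at least 2-fold lower in the Aqp5 than in the Dapl1 cluster and none was 2-fold higher (16% and 15.7% of all genes). None of 14 passed 2-fold between the junction-rich members and the cells outside the rule (median log2 -0.65), where 12.9% of all genes were higher and 6.29% lower. The melanocytic genes moved with this, since all 8 of 8 were 2-fold lower in the Aqp5 cluster (median log2 -1.87; 16% of all genes), as did Ptgds, a gene of the corneal endothelium list, at 6354 and 1321 CPM against 9378 CPM outside the rule. Their part in the glycolytic difference was not tested.

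Of the S100 and antimicrobial genes, 8 of 14 compared were at least 2-fold higher in the junction-rich members than outside the rule and 3 (S100a4, Lcn2 and Lyz2) were 2-fold lower (12.9% and 6.29% of all genes). S100a6 measured 8892, 37080.5, 24352 and 41300.2 CPM against 3086 outside the rule, S100a11 1416, 3483, 6012 and 7718 CPM, and S100a10 1349, 2871, 2129.9 and 9914 CPM. S100a9, a calgranulin of neutrophils and stressed keratinocytes, measured 402, 334, 2373 and 1556 CPM and S100a8 318, 228, 1019.6 and 303 CPM. The 8 neutrophil genes, of which these are 2, summed to 3444 CPM in the Ly6d cluster and 1418 CPM outside the rule. The receptor genes on that list had 1 Csf3r UMI and no Cxcr2 UMI in the cluster, and the part of neutrophil RNA in the calgranulin levels was not tested. Retnlg measured 17 CPM in that cluster and 29.7 CPM outside. Defb1, a constitutive defensin, measured 74.4, 575, 211 and 1085 CPM. Reg3g had no UMI in any member.

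Several interferon-induced and antigen presentation genes were highest in the Lce3a cluster. Isg15, a ubiquitin-like interferon product, measured 5.58, 9.37, 3.78 and 345 CPM, and the immunoproteasome subunit Psmb8 18.6, 59.3, 9.44 and 215 CPM. The class I heavy chains H2-K1 and H2-D1 measured 353 and 429 CPM in the Lce3a cluster and at most 228 and 162 CPM in the others. Cd274, the checkpoint ligand PD-L1, measured 14.9, 12.5, 3.78 and 322 CPM, with 18 outside the rule, and Nt5e, the adenosine-forming CD73, 11.2, 18.7, 73.6 and 253 CPM. Of the class I list, 4 of 8 genes were 2-fold higher in the Lce3a cluster than in the corneal clusters and none was 2-fold lower, and of the interferon list 5 of 7 were 2-fold higher (7.83% higher and 25.6% lower of all genes). The interferon list summed to 1276 CPM in the Lce3a cluster, 675 CPM in the corneal clusters and 1178 CPM outside the rule. As a sum it was thus close to the cells outside the rule. The class I list summed to 1958, 956 and 1483 CPM in the same sets. B2m, the light chain of class I molecules, did not follow the heavy chains: it measured 735, 197, 387 and 759 CPM and 1182 CPM outside the rule. All 4 class II genes compared were 2-fold lower in the junction-rich members than outside the rule (6.29% of all genes), as Cd74 at 17.6 against 143 CPM. Fasl, a death ligand linked to ocular immune privilege, had no UMI in any member. The macrophage markers other than the barred C1qa were low in the Lce3a cluster, with 1 UMI of C1qb, 7 of Cd68 and none of Csf1r, Adgre1 or Mrc1. The rule bars cells with C1qa or Ptprc, which fixed this in part. The neutrophil genes summed to 1958 CPM in that cluster and 1418 CPM outside the rule. The part of immune cell RNA in these levels was not tested.

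Ier3, an immediate early survival gene, measured 121, 75, 211 and 805 CPM with 173 outside the rule. None of 15 early response genes passed 2-fold between the junction-rich members and those cells (12.9% of all genes were higher and 6.29% lower). Egln3, an oxygen sensor, measured 113, 303, 66.1 and 26.8 CPM with 14.5 outside, and was highest in the Aqp5 cluster. The neutrophil chemokine Cxcl5 measured 13, 12.5, 139.7 and 30.7 CPM, while Ccl2 was lower in all 4 clusters (at most 42.8 CPM) than outside the rule (252 CPM). Of 9 genes of the BAP1 complex compared, none passed 2-fold between the junction-rich members and the cells outside the rule (median log2 -0.01). Of all genes, 12.9% were 2-fold higher and 6.29% lower, so a count of none among 9 says little.

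The split that the rule sets by Krt12 and by Krt15 or Trp63 gave 626 members with Krt12 alone (37.1%), 888 with both (52.6%), 132 with the basal genes alone (7.82%) and 42 with neither (2.49%). Before thinning, 507 of the 626 and 95 of the 132 lay outside the junction-rich clusters, so the values over all members do not describe epithelium alone. After thinning to 1000 UMIs, 603 cells with Krt12 alone and 130 with the basal genes alone were compared. Slurp1 measured 1065 CPM with Krt12 alone and 100 CPM with the basal genes alone, Lypd2 1174 and 162 CPM, Dapl1 342 and 46.2 CPM and Aqp5 393 and 76.9 CPM. In the other direction Krt17 measured 56.4 and 331 CPM, Krt16 91.2 and 431 CPM, Krt13 84.6 and 431 CPM, and Ifitm1, an interferon-induced membrane protein, 302 and 1115 CPM. Of 4748 genes, 9.63% were at least 2-fold higher and 3.92% at least 2-fold lower with Krt12 alone.

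Within the junction-rich members the same split left 116 and 35 cells. It followed the clusters: before thinning, 32 of the 37 cells with the basal genes alone were in the Ly6d cluster and none in the Aqp5 cluster, while 79 of the 119 with Krt12 alone were in the Dapl1 cluster and 17 in the Aqp5 cluster. The values that follow therefore repeat the differences between clusters. Lypd2 measured 4957 and 85.7 CPM, Slurp1 4647 and 85.7 CPM, Mgarp 1353 and 286 CPM and Tkt 948 and 286 CPM with Krt12 alone and with the basal genes alone. Ifitm1 measured 362 and 3629 CPM and Pglyrp1, a peptidoglycan recognition protein, 198 and 1086 CPM. Haemoglobin also differed, with Hbb-bs at 6509 and 16114 CPM, and its part was not tested. Of 944 genes, 11% were 2-fold higher and 7.31% 2-fold lower with Krt12 alone. Since 49.4 to 59.9% of cells of other types also had a Krt12 UMI, members with both genes, the most common set, cannot be read as cells midway between the other 2.

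Another split, which the rule did not use, set members with at least 2 of Krt4, Krt13 and Krt19 against members with none. There were 117 of the former, of which 101 were junction-rich: 50 of 109 in the Ly6d cluster, 33 of 64 in the Lce3a cluster, 14 of 77 in the Aqp5 cluster and 4 of 189 in the Dapl1 cluster. Among thinned junction-rich members (100 and 186 cells), Asprv1 measured 3090 CPM with these keratins and 134 CPM without, Psca 3460 and 253 CPM, Ly6a 2220 and 91.4 CPM, and Krt7 470 and 21.5 CPM. The chemokine gene Ppbp measured 810 and 53.8 CPM. The genes of the Dapl1 cluster were lower with these keratins: Dapl1 measured 150 and 1194 CPM, Tkt 190 and 1022 CPM, Col17a1 50 and 263 CPM and Mgarp 400 and 1333 CPM. Of 1832 genes, 10.5% were 2-fold higher and 9.01% 2-fold lower with these keratins. Over all members (116 and 1195 thinned cells) the shares were 9.59% and 16.8% of 7040 genes, and Asprv1 measured 2672 and 50.2 CPM and H2-Aa 8.62 and 129.7 CPM. Before thinning, 1054 of the 1250 members with none of these keratins lay outside the junction-rich clusters. The values over all members therefore also set epithelium against cells led by genes of other tissues.

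Cell cycle transcripts were few. After thinning to 1000 UMIs, Mki67 or Top2a was found in 5.90% (4.81 to 7.16%) of members, 7.26% of the Dapl1 cluster, 6.54% of the Ly6d cluster, 1.30% of the Aqp5 cluster and 1.56% of the Lce3a cluster. The intervals of the Aqp5 cluster (0.0329 to 7.02%) and of the Dapl1 cluster (3.92 to 12.1%) overlapped. Without thinning the shares were 15.1% of members and 13.4% of the cells outside the rule, at median depths of 2452 and 2033 UMIs and with overlapping intervals (13.4 to 16.9% and 12.9 to 13.8%). Of the 13 cell cycle genes compared, none was 2-fold higher or lower in the junction-rich members than outside the rule (median log2 -0.66), where 12.9% of all genes were higher and 6.29% lower.

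Cells just inside and just outside the rule had similar junction gene levels. Exactly 4 rule genes were found in 992 members, with a junction gene sum of 1.06 times the level outside the rule, and exactly 3 with none of the barred genes in 2211 further cells, at 1.00 times. A further 1464 cells had at least 4 rule genes and a barred gene, most often Col1a2 (782 cells). By the share of UMIs instead of the number of genes, 273 members and 139 cells outside the rule had at least 1% of their UMIs in the 9 rule genes. The 139 cells outside had junction genes at 5.29 times the level of all cells outside, so cells rich in junction genes also lay outside the rule.

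The same rule in the other 3 matrices found 54 of 9398 cells in KO ocular, 13 of 11682 in WT skin and none of 13111 in KO skin. In KO ocular 10 of the 54 cells had a Krt12 UMI (18.5%, 9.25 to 31.4%) and 0.203% of that matrix's other cells did. Their levels were 103 CPM of Krt12, 8039 of Krt13, 4757 of Krt7, 13275 of Psca, 29635 of Muc4 and 132512 of Gsto1, Slurp1 and Lypd2 had no UMI, and Muc5ac measured 2114 CPM in 4 cells. The 13 WT skin cells had no Krt12 and were led by Cst6, Defb6, Krt79 and Krt17. Assay, depth (a median of 19162 UMIs in the 54 cells) and dissected tissue differed with the matrix, so these values cannot be told apart from such differences and were set side by side only.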

How the data were processed

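Single-cell RNA was measured in the tumour-bearing tissue of mice given Melan-a cells, per the labels, which name both a Chromium Next GEM 3' v3.1 kit and a fixed tissue workflow. Values are whole-number UMI counts per gene and barcode as deposited by the authors. Cell Ranger and the builds GRCm38 and mm10 are named in the submitters' processing notes, and matrix names come from the submitters. Matrices had no replicate, so folds of summed counts with 95% intervals were given and no test was made; a fold over a set without UMIs used 3 counts. The members, gene lists and comparisons were chosen with earlier results of these data known. Members were clustered with scanpy 1.11.5 and igraph 0.11.9 (Leiden, resolution 0.4, 2000 variable genes, 20 components, 15 neighbours) with the 14 rule genes left out, and intervals used scipy 1.17.1. The fold computation was tested on simulated data.

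Genes named were the rule genes, up to 4 of each list with the most UMIs in members and any with none, the 20 largest folds of members over other cells, and the 12 largest each way in the 2 splits. Genes that lead a cluster, their chromosomal neighbours and other genes outside these limits were chosen after their values were seen. No doublet caller was run. The barred genes include no melanocytic or erythroid gene. A repeat without the 5% of members with the most UMIs did not lower the summed markers of other types. Neither step replaces a doublet caller, and doublets were not assessed. No whole barcode was shared between matrices. The first 16 bases of 2417, 1793 and 2014 barcodes were shared among the other 3, and of 2, 4 and 0 with WT ocular. Of 28 genes looked up in RefSeq, 28 had a position and 13 a promoter. Alternatives were other limits on mitochondrial share, rule genes, barred genes, thinning and low counts, and, chosen after seeing the data, other clusterings and the junction-rich members alone. An alternative with more barred genes is not reported here.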

Additional observations from a re-analysis of the deposited data

How the results depend on the processing

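No paired analysis was possible because each condition was 1 matrix. All values are without a test. In their main form they were 1688 members, 55.8% of thinned members with Krt12, 5.90% with Mki67 or Top2a, 669 genes past 2-fold between members and other cells, 643 between Krt12 alone and basal alone, 1858 in the conjunctival keratin split, a summed level of 49500 CPM for markers of 12 other cell types, and 439 junction-rich members. Of the alternatives given here, 34 values stayed within their spread or 1.5 times and 37 moved. Under 10% mitochondrial UMIs there were 632 members, 44.99% with Krt12, 278 and 1008 genes in the 2 splits and 32280 CPM of other markers. With at least 5 rule genes there were 696 members, 63.9%, 230 and 850 genes and 36730 CPM, and with at least 3 there were 3899 members, 49.95%, 3042 genes in the keratin split and 56820 CPM. Allowing 1 UMI of a barred gene gave 2644 members, 52.3% and 45490 CPM. Without the 5% of members with the most UMIs, Krt12 was found in 58.4% and other markers summed to 55260 CPM, and the mean of per-cell CPM gave 75810 CPM. Thinning to 2000 UMIs gave 63.2% and 8.67%, and no thinning gave 89.7%, 15.1% and 1015 genes in the Krt12 split. At least 100 UMIs a gene left 282, 34 and 281 genes, and no filter gave 7962, 6858 and 9536. Both moved by construction, since the first removed genes from the comparison and the second let other genes in. In the junction-rich members alone (chosen after seeing the data) Krt12 was found in 75.6%, 1491, 173 and 357 genes passed 2-fold and other markers summed to 19510 CPM. The number of junction-rich members was 371 to 433 with other clusterings. It was 457 with a limit of 1.5 times, which added the Pde6h cluster (18 cells), led by cone genes. It was 186 with a limit of 3 times, which left the Aqp5 and Ly6d clusters. The number of junction-rich clusters changed as well. It was 3 with another seed, a lower resolution or more variable genes, and 4 with a higher resolution. The split into 4 clusters thus depended on the clustering settings, and how the 4 mapped onto the 3 was not examined. For settings other than the filter on low genes the cause was not tested. Within the junction-rich members the basal set had 35 thinned cells (37 before thinning), which limits the precision of that split.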
